A study of Mus musculus with 30 samples.

Results

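The expression of 34 genes of the unfolded protein response and the integrated stress response was followed in mouse embryonic fibroblasts that were made to enter the muscle programme, on 30 Affymetrix Mouse Genome 430 2.0 arrays. The genes were chosen by name, with earlier results of these data known, so their counts beside the shares of all genes are descriptions. Each was measured by the probe set that the platform annotation gave to its symbol, and where a gene had several, by the one with the highest mean over all arrays. All 34 genes were found among the 18193 genes measured: 16 chaperones and folding factors of the endoplasmic reticulum (ER), 7 genes of ER-associated degradation, 4 stress sensors and transducers, and 7 genes of the Atf4 branch. All 10 groups were embryonic fibroblasts from MyoD-/- Myf5-/- mice, connective tissue cells without 2 of the transcription factors that commit cells to muscle. They carried 1 of 3 retroviruses: wild-type mouse MyoD joined to the hormone-binding domain of the estrogen receptor (ER-MyoD wt, or wt for short), the same fusion with lysines 99, 102 and 104 changed so that acetylation there is lost (ER-MyoD RRR, or RRR), or a virus with no insert (empty retrovirus). Differentiation medium held beta-estradiol, the hormone that activates such a fusion, and RNA was taken at 0, 6, 12 and 24 h from ER-MyoD wt and at 6, 12 and 24 h from each of the others, 3 arrays per group. No 0 h arrays of RRR or empty retrovirus cells were analysed here. Effects of the medium, the hormone and the fusion on the course from 0 h in wt cells cannot be told apart. The labels give neither the promoter of the virus nor the number of transductions, and do not say whether replicates were separate cultures. The p-values therefore rest on the spread between arrays, which may be technical.

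The unfolded protein response is the set of signals that a cell sends when unfolded proteins build up in the ER, the compartment where secreted and membrane proteins are made. The sensors Ern1 (IRE1), Eif2ak3 (PERK) and Atf6 sit in the ER membrane. Atf6 and the spliced form of Xbp1, which Ern1 produces, switch on chaperones and degradation genes, in part through the ER stress element of their promoters. Eif2ak3 phosphorylates the initiation factor eIF2, as do kinases that sense amino acid shortage, and this favours translation of Atf4, a factor that raises amino acid synthesis genes such as Asns and Psat1 and stress genes such as Ddit3 (CHOP), Trib3 and Chac1. Differentiating muscle cells are known to show signs of ER stress. The arrays measured mRNA levels, and neither Xbp1 splicing nor phosphorylation was measured.

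Fibroblast identity was checked with 10 markers, all measured, whose summed signal lay between 33000 and 72500 on all arrays. The summed signal of 10 skeletal muscle markers was 185 to 399 in empty retrovirus cells and reached 46400 to 55200 in wt and 32000 to 36000 in RRR at 24 h. In wt at 0 h it was 1070 to 1200, above every empty retrovirus array. Markers of blood cells, endothelium, epithelium, adipocytes and nerve cells summed to no more than 1410 on any array. Replicate arrays correlated with r between 0.946 and 0.973. Best matches lay in the own group for 27 arrays. RRR 6 h replicate 2 matched wt 6 h replicate 3 best, and empty retrovirus 12 h replicates 1 and 3 matched 6 h arrays of that line. The 3 arrays with the lowest mean correlation to their group stood apart: RRR 6 h replicate 2 (0.949), empty retrovirus 12 h replicate 1 (0.9502) and wt 24 h replicate 3 (0.9513). In RRR 6 h replicate 2 the 3' probe sets of Gapdh and Actb read 2.44 and 3.61 times their 5' probe sets (a high ratio goes with degraded RNA). The next highest Actb ratio was 2.07, in wt 12 h replicate 3 and empty retrovirus 12 h replicate 2. Empty retrovirus 12 h replicate 1 had the highest median signal (64.1). In bulk RNA, fewer cells with a transcript and less of it per cell cannot be told apart.

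The ER stress element is the promoter sequence through which Atf6 and Xbp1 are known to act on chaperone genes. It is shown here because it was found in part of the chaperone and degradation genes and in no window of the Atf4 branch. It was searched as CCAAT and CCACG with 9 bases between them, on both strands, in RefSeq promoter windows of 300 bases (250 before and 50 after the start site, build GRCm38.p6), which held 30 of the 34 genes in 32 windows. It was present in 39 of 32851 windows of all genes (0.119%), in 7 of 14 windows of chaperone and folding genes (50%), in 2 of 7 windows of degradation genes (28.6%), in 0 of 3 windows of sensors and in 0 of 8 windows of the Atf4 branch. The shorter ER stress element II (ATTGG and CCACG with 1 base between) was in 12 windows of all genes (0.0365%), among them those of Dnajb11 and Herpud1. Neither the unfolded protein response element TGACGTGG (0.676% of all windows) nor the C/EBP-ATF response element TGATGNAAT (0.965%), on either strand, was in any of the 32 windows, and no match overlapped another motif. A match is a description of letters and not evidence of binding.

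The matches are printed 5′ to 3′ along the gene, with the 2 parts of the element in capitals and the free bases in lower case. An element on the opposite strand reads CGTGG first. Each line is headed by the gene, the position and the strand of the gene.
Hspa5, chr2:34772025-34772043, +: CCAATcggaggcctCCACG
Hsp90b1, chr10:86705638-86705656, -: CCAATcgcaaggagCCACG
Hsp90b1, chr10:86705533-86705551, -: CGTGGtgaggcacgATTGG
Dnajc3, chr14:118937827-118937845, +: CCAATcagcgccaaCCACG
Calr, chr8:84847075-84847093, -: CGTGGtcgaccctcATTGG
Canx, chr11:50325800-50325818, -: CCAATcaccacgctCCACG
Pdia6, chr12:17266491-17266509, +: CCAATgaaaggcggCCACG
Creld2, chr15:88819520-88819538, +: CGTGGcgagcctcaATTGG
Derl3, chr10:75893242-75893260, +: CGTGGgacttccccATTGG
Syvn1, chr19:6046532-6046550, +: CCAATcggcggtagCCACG
The elements began 65 bases before the start site in Hspa5, 212 and 107 in Hsp90b1, 105 in Dnajc3, 162 in Calr, 145 in Canx, 98 in Pdia6, 126 in Creld2, 156 in Derl3 and 44 in Syvn1.

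The 250 bases before the start site are given for Hspa5, Hsp90b1, Dnajc3 and Canx, the 4 genes that were lower in RRR than in wt at 6 h, with the element as above.
Hspa5, chr2:34771840-34772089, +: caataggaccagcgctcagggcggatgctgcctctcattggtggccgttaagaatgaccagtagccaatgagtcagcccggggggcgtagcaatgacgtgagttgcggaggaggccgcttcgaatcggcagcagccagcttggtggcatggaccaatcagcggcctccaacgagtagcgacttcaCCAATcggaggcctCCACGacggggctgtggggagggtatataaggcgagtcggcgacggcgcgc
Hsp90b1, chr10:86705445-86705694, -: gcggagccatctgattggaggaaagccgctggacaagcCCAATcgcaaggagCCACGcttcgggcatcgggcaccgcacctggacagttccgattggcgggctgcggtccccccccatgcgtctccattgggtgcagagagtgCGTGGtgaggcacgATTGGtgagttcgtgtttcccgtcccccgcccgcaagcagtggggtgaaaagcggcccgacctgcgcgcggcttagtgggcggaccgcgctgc
Dnajc3, chr14:118937682-118937931, +: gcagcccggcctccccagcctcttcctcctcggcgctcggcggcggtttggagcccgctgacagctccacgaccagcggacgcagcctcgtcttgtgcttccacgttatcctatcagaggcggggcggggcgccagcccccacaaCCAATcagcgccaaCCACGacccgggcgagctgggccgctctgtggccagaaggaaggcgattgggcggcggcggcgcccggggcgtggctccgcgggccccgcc
Canx, chr11:50325674-50325923, -: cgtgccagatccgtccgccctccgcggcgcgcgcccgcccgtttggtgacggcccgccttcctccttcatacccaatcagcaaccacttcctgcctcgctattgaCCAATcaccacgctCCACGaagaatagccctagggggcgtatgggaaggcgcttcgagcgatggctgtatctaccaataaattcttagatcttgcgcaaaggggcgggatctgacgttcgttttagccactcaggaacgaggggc

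Differences were tested with limma on log2(signal + 16) after quantile normalization, over all 18193 genes, and a gene was called at an adjusted p under 0.05 (Benjamini-Hochberg, two-sided). Log2 differences are given ± their standard error in the fit, with 3 arrays per group, and a signal is the deposited intensity. Several comparisons share arrays (each group enters 2 or more), so their counts are not independent of each other. Beside the first count of members in each comparison stands the share of all genes called in the same direction. Where centring each array on its median moved the balance of higher and lower calls over all genes by more than 10 percentage points, the shares after centring follow. Scaling moved the median of all genes by up to 0.123 on the log2 scale.

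From 6 to 24 h in empty retrovirus cells, 17 of the 34 genes rose and 2 fell, against 8.09% and 7.66% of all genes. The median difference of the members was 0.49 on the log2 scale (all genes -0.02), or 0.445 after centring. After centring 2 chaperones, 2 degradation genes, 2 sensors and transducers and 5 Atf4 branch genes rose (all genes 5.9%). In that setting 2 Atf4 branch genes fell (all genes 5.11%). In wt over the same interval 8 rose and 11 fell (all genes 11.4% and 12.4%; 7.83% and 13.1% after centring, when 2 members rose and 11 fell). In RRR 11 rose and 3 fell (all genes 11.0% and 12.9%). This balance turned to 3 and 5 after centring (all genes 6.76% and 16%), and the median of the members moved from 0.33 to -0.08. From 0 h, wt cells had 8 members higher and 9 lower at 6 h (all genes 9.52% and 8.20%), 9 and 5 at 12 h (10.5% and 9.85%), and 8 and 10 at 24 h (14.5% and 16.2%). After centring the counts at 12 h were 5 and 5, and at 24 h 5 and 12. At 6 h centring left 4 chaperones and 1 of the sensors and transducers higher (all genes 8.22%). Lower there were 6 Atf4 branch genes, 1 degradation gene and 1 of the sensors and transducers (all genes 6.33%).

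Against empty retrovirus, wt had 7 members higher and 1 lower at 6 h (all genes 6.50% and 6.23%, or 7.55% and 2.89% after centring), 7 and 1 at 12 h (7.16% and 8.26%, or 7.6% and 4.55%), and 3 and 15 at 24 h (11.4% and 14.0%). After centring 11 and 1 members passed at 6 h, 9 and 1 at 12 h, and 2 and 9 at 24 h. The share lower at 24 h was 44.1% of the members, and their median difference was -0.38 (all genes 0.03), or -0.21 after centring (all genes 0.04). Single arrays moved the earlier counts. At 6 h the 8 calls became 4 without empty retrovirus replicate 3, and 5 without wt replicate 1 or 2. At 12 h the 8 calls became 3 without empty retrovirus replicate 1, and 4 when wt replicate 1 was left out. RRR against the same control had 3 members higher and 4 lower at 6 h (all genes 7.18% and 6.63%, or 7.95% and 3.89% after centring, when 6 members were higher and 1 lower). At 12 h it had 2 and 1 (5.11% and 4.97%, or 5.74% and 1.91% with 5 and 0 members after centring), and at 24 h 2 and 9 (8.57% and 10.5%, or 5.14% and 9.66%). After centring at 24 h, 1 Atf4 branch gene was higher, and 4 Atf4 branch genes and 2 of the sensors and transducers were lower. None of the chaperones and degradation genes passed then. With the deposited scaling the counts at 6 h were 6 and 4, and without empty retrovirus 6 h replicate 1 the 7 calls became 4.

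The fusions themselves differed less. RRR minus wt gave 1 member higher and 4 lower at 6 h (all genes 1.63% and 2.03%, or 0.302% and 1.09% after centring, when 0 and 1 members passed), 0 and 0 at 12 h (0.874% and 0.879%). At 24 h it gave 3 and 0 (3.34% and 2.03%, or 0.967% and 1.64%, with 0 members). At 12 h, limma gave 6 members with an unadjusted p under 0.05, 2 higher and 4 lower. The count of 5 at 6 h was 2 without wt replicate 1 and 3 without RRR replicate 1 or 3. The count of 3 at 24 h was 0 without replicate 1 of either fusion and 1 without RRR replicate 2. Of the genes that changed differently with time, tested as a difference of differences, 16 members fell in wt relative to empty retrovirus between 6 and 24 h and 0 rose (all genes 8.26% and 6.46%, or 7.73% and 3.32% after centring). After centring these were 9 chaperones and 4 Atf4 branch genes, and 0 rose. Without centring, 18 were lower and 2 higher by unadjusted p in limma. RRR relative to wt gained in 4 members and lost in 0 (all genes 1.33% and 0.704%, or 0.137% and 0.126% after centring, with 0 members). By unadjusted p 14 gained and 1 lost.

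**Figure D1:**
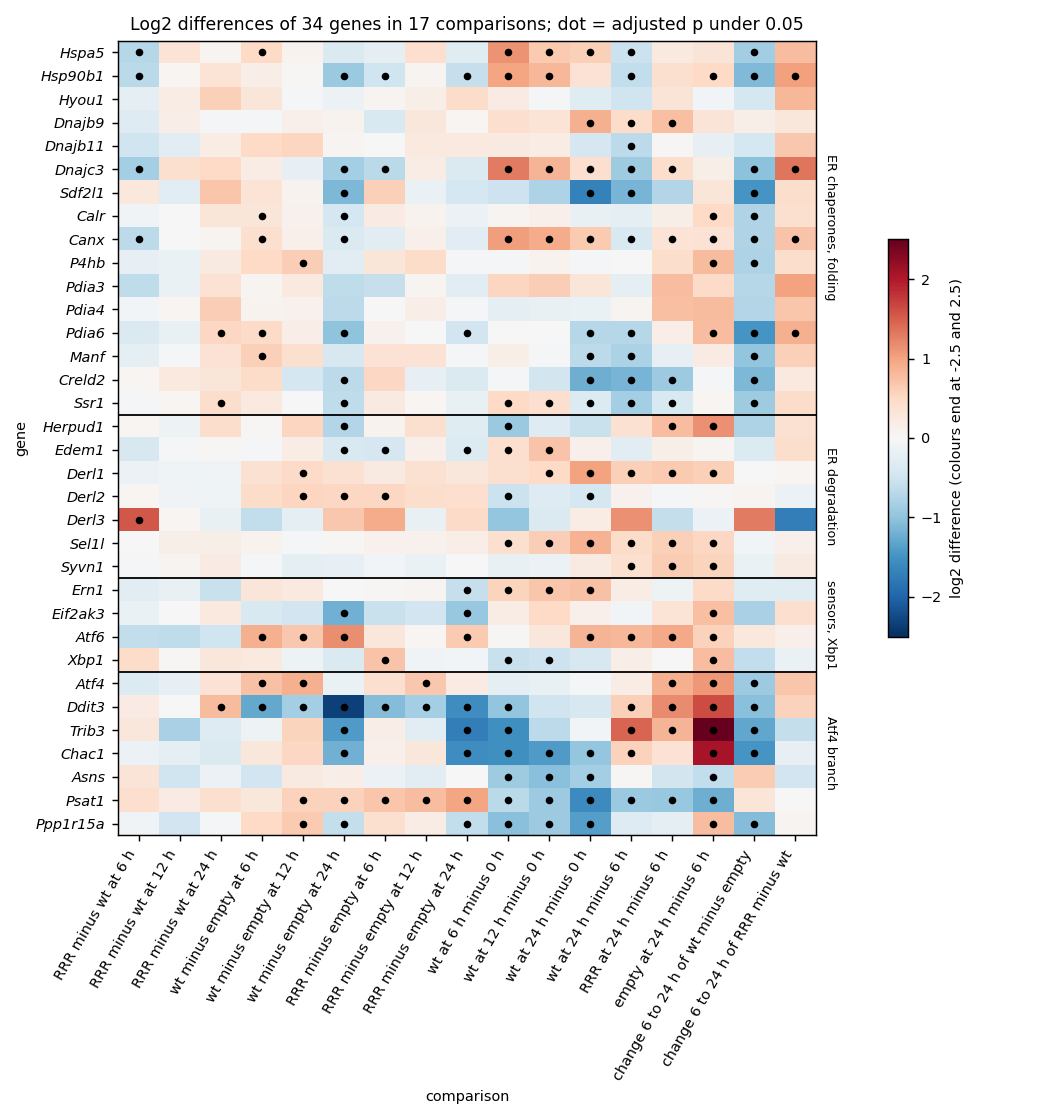
Log2 differences of the 34 genes (rows, by role) in the 17 comparisons (columns), red for higher and blue for lower, with a dot where the adjusted p was under 0.05. The column for the change from 6 to 24 h of wt minus empty retrovirus holds 16 dots, all blue, and the column for empty retrovirus at 24 h minus 6 h holds 17 red and 2 blue.

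Hspa5, Hsp90b1, Dnajc3 and Canx, chaperones of the ER lumen and membrane, rose in wt from 0 to 6 h and fell from 6 to 24 h, and at 6 h all 4 were lower in RRR. Hspa5 (BiP), the main ER chaperone and a brake on the sensors, had signals of 2570, 2470 and 2330 in wt at 0 h, 5290, 4860 and 4560 at 6 h, 3520, 3700 and 3150 at 12 h and 3420, 2940 and 3340 at 24 h. All arrays at the later times lay above all arrays at 0 h, and the 6 h arrays above all others of that line. It rose from 0 to 6 h (1.12 ± 0.16, adjusted p = 8.53e-06) and was still above 0 h at 24 h (0.59 ± 0.16, adjusted p = 0.0056). From 6 to 24 h it fell (-0.53 ± 0.16, adjusted p = 0.0156), a call lost without wt 6 h replicate 1 (-0.46, adjusted p = 0.0771) or 24 h replicate 2 (-0.39, adjusted p = 0.121). The signals of Hspa5 were 3320, 2920 and 3110 at 6 h, 4070, 4560 and 4130 at 12 h, and 3380, 3190 and 2960 at 24 h in RRR. They were 3600, 3880 and 2150 at 6 h, 2770, 3160 and 3110 at 12 h, and 3740, 3730 and 3930 at 24 h in empty retrovirus cells. The low value of empty retrovirus 6 h replicate 3 made that group the widest. At 6 h RRR lay below wt without overlap (-0.71 ± 0.16, adjusted p = 0.0118). This call was lost without wt 6 h replicate 1 (-0.64, adjusted p = 0.0755). Expression in wt exceeded empty retrovirus at 6 h (0.49 ± 0.16, adjusted p = 0.0451), a call lost without empty retrovirus 6 h replicate 3 (0.20, adjusted p = 0.452). It was also lost without wt 6 h replicate 1 (0.42, adjusted p = 0.17), 2 (0.54, adjusted p = 0.0681) or 3 (0.52, adjusted p = 0.079).

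Hsp90b1 (GRP94), the ER form of the Hsp90 chaperone, read 2430, 1500 and 1890 at 0 h, 3920, 3310 and 3350 at 6 h, 2910, 3180 and 3180 at 12 h, and 2300, 2280 and 2000 at 24 h in wt. It gave 2000, 3210 and 1930 at 6 h, 3180, 3370 and 2980 at 12 h, and 2400, 2890 and 2610 at 24 h in RRR. The empty retrovirus arrays read 2760, 2690 and 3090 at 6 h, 2140, 3540 and 2800 at 12 h, and 3300, 4220 and 4040 at 24 h. The wt arrays at 6 h lay above those at 0 and 24 h, and at 24 h the empty retrovirus arrays were above both fusions. Hsp90b1 rose in wt to 6 h (0.98 ± 0.15, adjusted p = 2.04e-05), fell from 6 to 24 h (-0.61 ± 0.15, adjusted p = 0.00277) and ended below empty retrovirus at 24 h without overlap (-0.93 ± 0.15, adjusted p = 1.8e-05). RRR was below empty retrovirus at 24 h as well (-0.58 ± 0.15, adjusted p = 0.00596). At 6 h RRR was below wt without overlap (-0.67 ± 0.15, adjusted p = 0.0101). In this group RRR 6 h replicate 2, the array with the high 3' to 5' ratios, read 3210 where the other two read 2000 and 1930. Without it the difference was -0.88, adjusted p = 0.00057. The call was lost without RRR replicate 1 (-0.59, adjusted p = 0.0552) or 3 (-0.54, adjusted p = 0.0826) or wt replicate 1 (-0.60, adjusted p = 0.0732).

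Dnajc3 (p58IPK), a co-chaperone of Hspa5, rose in wt from 0 to 6 h without overlap (1.30 ± 0.15, adjusted p = 3.15e-07). Its signals in wt were 273, 204 and 233 at 0 h, 748, 533 and 720 at 6 h, 502, 424 and 481 at 12 h, and 350, 398 and 276 at 24 h. RRR gave 386, 381 and 276 at 6 h, 597, 556 and 744 at 12 h, and 433, 473 and 512 at 24 h. In empty retrovirus cells the signals were 615, 566 and 490 at 6 h, 450, 625 and 549 at 12 h, and 667, 551 and 619 at 24 h, and none of these arrays was under 450. At 6 h RRR lay below both wt (-0.84 ± 0.15, adjusted p = 0.00156) and empty retrovirus (-0.67 ± 0.15, adjusted p = 0.00292), and the arrays did not overlap in either case. Both calls held with any 1 array left out. By 24 h it was wt that lay below empty retrovirus (-0.85 ± 0.15, adjusted p = 7.01e-05), after a fall from 6 h (-0.89 ± 0.15, adjusted p = 4.46e-05). In RRR Dnajc3 rose from 6 to 24 h (0.45 ± 0.15, adjusted p = 0.0322), a call lost without RRR 6 h replicate 3 (0.30, adjusted p = 0.222), 24 h replicate 2 (0.44, adjusted p = 0.0748) or 24 h replicate 3 (0.39, adjusted p = 0.128). The change of the RRR minus wt difference from 6 to 24 h was 1.34 ± 0.22 (adjusted p = 0.000894), the largest of the 4 members that passed that test.

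Canx (calnexin), the membrane lectin chaperone for glycoproteins, read 2200, 1850 and 2110 at 0 h, 4090, 4090 and 3610 at 6 h, 3550, 3500 and 3590 at 12 h, and 2840, 3530 and 2420 at 24 h in wt. In RRR it read 2740, 2780 and 2290 at 6 h, 3540, 3750 and 3250 at 12 h, and 2620, 2740 and 3160 at 24 h. Those of empty retrovirus cells were 2870, 2930 and 2280 at 6 h, 2610, 3450 and 2900 at 12 h, and 2980, 3780 and 3420 at 24 h. At 6 h every wt array was above every array of the other lines. Canx rose in wt to 6 h (1.04 ± 0.12, adjusted p = 1.72e-07) and stayed above 0 h at 24 h (0.66 ± 0.12, adjusted p = 4.73e-05). RRR was below wt at 6 h without overlap (-0.65 ± 0.12, adjusted p = 0.00156), and the call held with any 1 array left out. Its fall in wt from 6 to 24 h (-0.38 ± 0.12, adjusted p = 0.0181) was lost without wt 6 h replicate 1 (-0.33, adjusted p = 0.0782) or 24 h replicate 3 (-0.30, adjusted p = 0.106). Hspa5, Hsp90b1, Dnajc3 and Canx, whose promoter stretches are printed above, were the only chaperones called between the fusions at 6 h. Of the 9 members with the ER stress element these 4 were lower in RRR, Derl3 was higher, and Calr, Pdia6, Creld2 and Syvn1 were not called. After median centring Dnajc3 alone passed. Of their other probe sets, 4 of 4 for Dnajc3, 2 of 2 for Canx, 1 of 1 for Hsp90b1 and 1 of 2 for Hspa5 were lower too, and 0 of them was called. Among 28 genes outside the 34 that hold the element, 11 were measured, and 0 of them was called between the fusions at any time. Of all genes, 1.63% were higher and 2.03% lower at 6 h, 0.874% and 0.879% at 12 h, and 3.34% and 2.03% at 24 h. With shares this low, 0 of 11 cannot tell these genes from all genes. Across these 11 the median differences were -0.001, -0.04 and -0.021 at 6, 12 and 24 h.

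**Figure D2:**
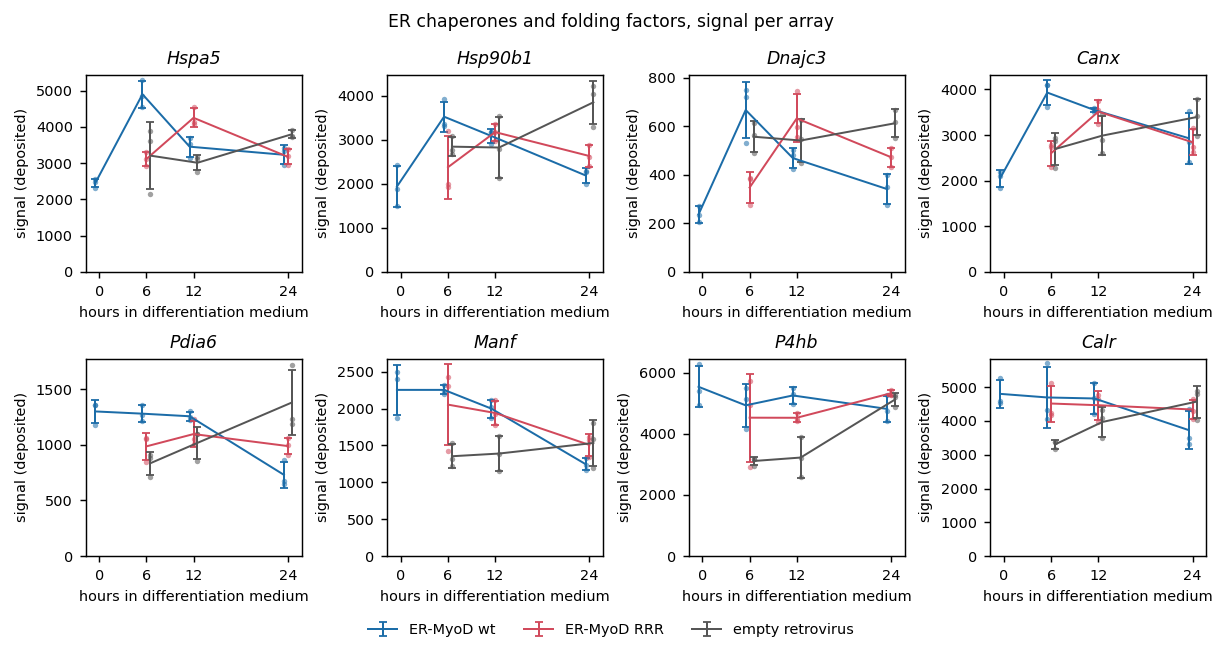
Deposited signal per array (points) with group means and SD (lines and bars) of 8 ER chaperones and folding factors against hours in differentiation medium, drawn slightly apart for the 3 lines. Hspa5, Hsp90b1, Dnajc3 and Canx peak at 6 h in wt, where RRR is lower, and Pdia6 is lowest in wt at 24 h.

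The folding factors Pdia6, Manf, Ssr1, Creld2 and Sdf2l1 had their lowest group mean in wt at 24 h, below the mean at 0 h. For Ssr1 the call from 0 to 24 h was lost with at least 1 array left out, and another probe set was called in the opposite direction. Pdia6, a disulfide isomerase that also damps the sensors, read 1180, 1360 and 1360 at 0 h, 1360, 1210 and 1270 at 6 h, 1250, 1220 and 1300 at 12 h, and 677, 652 and 861 at 24 h in wt. RRR cells gave 1060, 848 and 1050 at 6 h, 1050, 1010 and 1230 at 12 h, and 1060, 996 and 910 at 24 h. The empty retrovirus arrays read 909, 880 and 714 at 6 h, 852, 1100 and 1100 at 12 h, and 1190, 1230 and 1720 at 24 h. The wt arrays at 24 h lay below those of every other group except for 1 array each of RRR at 6 h, empty retrovirus at 6 h and empty retrovirus at 12 h, which fell below the highest of them. It fell in wt from 6 to 24 h (-0.71 ± 0.13, adjusted p = 0.000127) while it rose in empty retrovirus cells (0.77 ± 0.13, adjusted p = 0.000101). At 24 h it was below empty retrovirus without overlap (-1.01 ± 0.13, adjusted p = 7.76e-07). The 1 other probe set of Pdia6 had the opposite sign and was not called, both here and for the fall in wt, as it had for wt at 24 h minus 0 h and for RRR minus empty retrovirus at 24 h. RRR lay between them at 24 h, above wt without overlap (0.53 ± 0.13, adjusted p = 0.0156). That call was lost without RRR 24 h replicate 1 (0.48, adjusted p = 0.0771) or 2 (0.52, adjusted p = 0.0512) or wt 24 h replicate 1 (0.47, adjusted p = 0.083) or 2 (0.43, adjusted p = 0.103).

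Manf, a secreted factor released under ER stress, read 2490, 1870 and 2400 at 0 h, 2200, 2320 and 2240 at 6 h, 2110, 1870 and 2020 at 12 h, and 1170, 1330 and 1240 at 24 h in wt. It read 1310, 1220 and 1530 at 6 h and 1200, 1590 and 1810 at 24 h in empty retrovirus cells. All wt arrays at 6 h were above all empty retrovirus arrays (0.60 ± 0.15, adjusted p = 0.00785). At 24 h the groups overlapped (-0.39 ± 0.15, adjusted p = 0.0619), after a fall from 6 h in wt (-0.78 ± 0.15, adjusted p = 0.000237). Ssr1, a subunit of the translocon-associated complex, read 2320, 2290 and 2260 at 6 h and 1100, 1370 and 1180 at 24 h in wt, 1660, 1500 and 1540 in RRR at 24 h and 1650, 1650 and 1910 in empty retrovirus cells at 24 h. No array of wt at 24 h reached those of the other lines. It fell in wt from 6 to 24 h (-0.85 ± 0.12, adjusted p = 4.13e-06) and ended below empty retrovirus (-0.64 ± 0.12, adjusted p = 0.000187) and below RRR (RRR minus wt 0.45 ± 0.12, adjusted p = 0.0302). The last call was lost without RRR 24 h replicate 1 (0.42, adjusted p = 0.104), 2 (0.46, adjusted p = 0.068) or 3 (0.46, adjusted p = 0.0686) or wt 24 h replicate 1 (0.38, adjusted p = 0.147).

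Creld2, a secretory folding factor, went from 453, 443 and 499 at 0 h to 126, 252 and 221 at 24 h in wt (-1.21 ± 0.20, adjusted p = 1.19e-05). In RRR it fell from 400, 565 and 447 at 6 h to 315, 216 and 216 at 24 h (-0.92 ± 0.20, adjusted p = 0.000637). Sdf2l1, a partner of Hspa5 and its co-chaperones, read 422, 177 and 354 at 0 h and 104, 105 and 67 at 24 h in wt (-1.68 ± 0.34, adjusted p = 0.00026). Its empty retrovirus arrays at 24 h read 201, 170 and 314, and the wt minus empty retrovirus difference at 24 h (-1.13 ± 0.34, adjusted p = 0.0138) was lost without wt 24 h replicate 3 (-0.85, adjusted p = 0.113) or empty retrovirus 24 h replicate 3 (-0.87, adjusted p = 0.104). Dnajb9 (ERdj4), a co-chaperone that feeds clients to degradation, rose. It went in wt from 429, 342 and 379 at 0 h to 750, 686 and 752 at 24 h (0.89 ± 0.15, adjusted p = 2.87e-05). In RRR it rose from 424, 463 and 375 at 6 h to 522, 794 and 777 at 24 h (0.75 ± 0.15, adjusted p = 0.000364). P4hb, a disulfide isomerase and collagen prolyl hydroxylase subunit, read 3180, 3180 and 2960 at 6 h, 3200, 2570 and 3890 at 12 h, and 4860, 5280 and 5210 at 24 h in empty retrovirus cells against 5510, 5120 and 4150 at 6 h, 5480, 5310 and 4960 at 12 h, and 4420, 4730 and 5280 at 24 h in wt. The empty retrovirus arrays at 6 and 12 h were below those of wt. P4hb rose there from 6 to 24 h (0.78 ± 0.19, adjusted p = 0.00302), and wt was above empty retrovirus at 12 h (0.61 ± 0.19, adjusted p = 0.0211). That call was lost without wt 12 h replicate 1 (0.59, adjusted p = 0.0714) or 2 (0.56, adjusted p = 0.0852) or empty retrovirus 12 h replicate 2 (0.42, adjusted p = 0.183). Calr (calreticulin), the soluble partner of calnexin, ranged from 3160 to 5720 and lay below empty retrovirus in wt at 24 h (-0.44 ± 0.10, adjusted p = 0.00109). Dnajb11 (ERdj3), a luminal co-chaperone with signals of 510 to 1450, was called in 1 comparison, a fall in wt from 6 to 24 h (-0.65 ± 0.19, adjusted p = 0.0101) that was lost without wt 6 h replicate 1 (-0.49, adjusted p = 0.092). Hyou1, an ER member of the Hsp110 family (685 to 2280), and the disulfide isomerases Pdia3 (1160 to 4520) and Pdia4 (97.3 to 602) were called in 0 of the 17 comparisons, where limma gave an unadjusted p under 0.05 in 2, 5 and 1 of them. The lowest Pdia3 and Pdia4 signals were both on RRR 6 h replicate 2.

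As a group, 8 of the 16 chaperones and folding genes were lower and 0 higher in wt than in empty retrovirus at 24 h, with a median difference of -0.54 (-0.40 with the deposited scaling and -0.35 after centring, with 6 and 5 lower), against 14.0% of all genes lower and 11.4% higher. In RRR minus empty retrovirus, which shares the control arrays, 2 were lower and 0 higher (all genes 10.5% and 8.57%), with a median of -0.24, and after centring 0 were lower. At 6 h 5 were higher and 0 lower in wt than in empty retrovirus (median 0.33; all genes 6.50% and 6.23%). With the deposited scaling these were 8 and 0 (median 0.45), and after centring 8 and 0 (median 0.64). In RRR 0 were higher and 2 lower (median 0.04; all genes 7.18% and 6.63%), and after centring 3 and 0 (median 0.33). Within wt 10 fell and 1 rose from 6 to 24 h (median -0.57; all genes 12.4% and 11.4%), and within empty retrovirus cells 5 rose and 0 fell (median 0.33; all genes 8.09% and 7.66%), or 2 and 0 after centring. The difference of these courses passed for 11 of the 16, all downward (median -0.82; all genes 8.26% downward), and for 9 after centring. From 6 to 24 h the chaperones also parted between the fusions: the change of RRR minus wt was upward in 4 of 16 (median 0.68; all genes 1.33%), namely Hsp90b1 (1.02 ± 0.21, adjusted p = 0.0093), Dnajc3, Canx (0.72 ± 0.17, adjusted p = 0.0183) and Pdia6 (0.89 ± 0.19, adjusted p = 0.0099). After centring 0 of them passed. They are 4 of the 9 members with the ER stress element, out of 30 members with a promoter window. All 4 are chaperones and folding genes, where 7 of the 14 genes with a window hold the element, and no link was tested. Hspa5, Calr, Creld2, Derl3 and Syvn1, which also hold it, were not called in this test. Canx was lost without RRR 6 h replicate 3 (0.61, adjusted p = 0.0673), RRR 24 h replicate 3 (0.65, adjusted p = 0.0589), wt 6 h replicate 1 (0.67, adjusted p = 0.055) or wt 24 h replicate 3 (0.65, adjusted p = 0.0586). Beside these counts, the summed fibroblast markers at 24 h were 33000 to 43200 in wt, 48500 to 56900 in RRR and 57600 to 72500 in empty retrovirus cells. In wt at 12 h the sum was 36000 to 36700. At 24 h 8 of the 10 markers were lower in wt than in empty retrovirus. Muscle markers moved the opposite way, and the part of either in these differences was not tested.

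**Figure D3:**
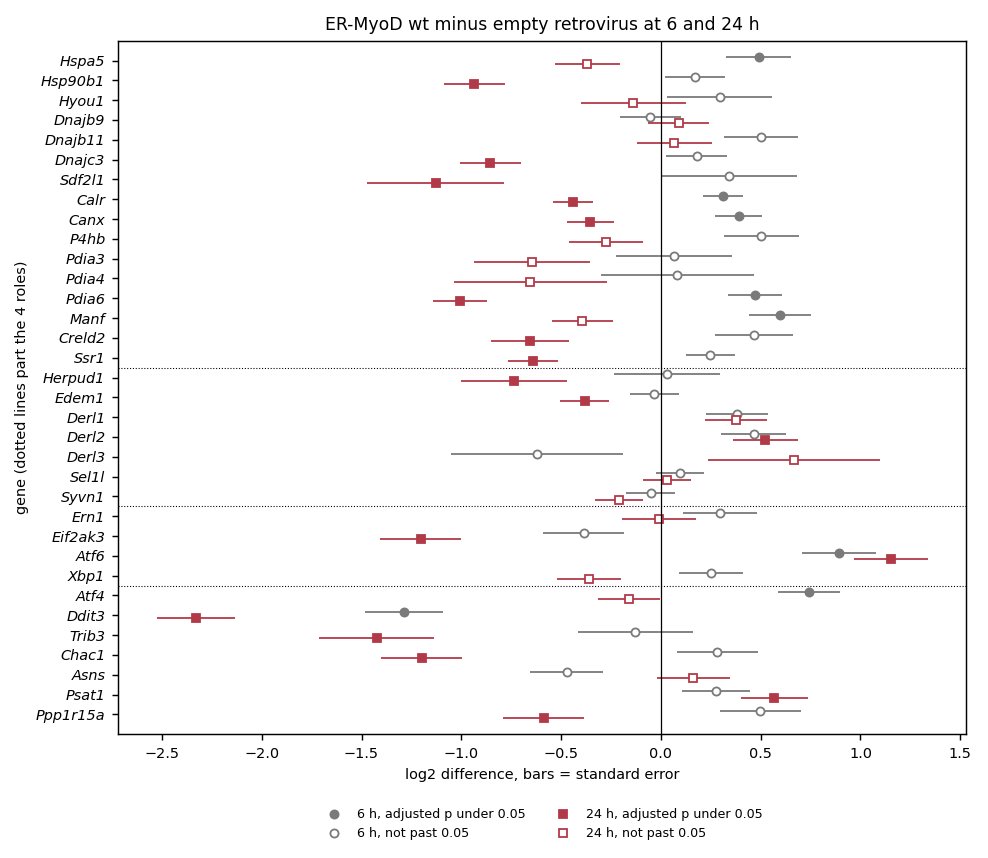
Log2 difference of wt minus empty retrovirus for the 34 genes at 6 h (circles) and 24 h (squares), with standard errors, filled where the adjusted p was under 0.05. At 24 h 15 genes are filled on the negative side, led by Ddit3 at -2.33, and 3 on the positive side.

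Of the 7 degradation genes, Derl1, Sel1l and Syvn1 rose from 6 to 24 h in all 3 lines. After median centring 0 of the 7 passed in wt and in RRR, where 3 and 4 had risen, and 2 passed in empty retrovirus cells, where 4 had risen. Derl1 and Sel1l were among the calls lost there. Derl1, a channel component for the export of misfolded proteins, read 1090, 1290 and 1100 at 0 h, 1400, 1610 and 1520 at 6 h, 1750, 1250 and 1860 at 12 h, and 1950, 2360 and 2180 at 24 h in wt. At 24 h all arrays were above all at 0 h (1.0 ± 0.15, adjusted p = 6.14e-06). It rose from 6 to 24 h in wt (0.60 ± 0.15, adjusted p = 0.00404), in RRR (0.65 ± 0.15, adjusted p = 0.00174) and in empty retrovirus cells (1080, 866 and 1170 at 6 h, 1380, 1770 and 1410 at 24 h, 0.60 ± 0.15, adjusted p = 0.00602). The last call was lost without empty retrovirus 6 h replicate 2 (0.46, adjusted p = 0.065) or 24 h replicate 2 (0.51, adjusted p = 0.0503). Sel1l, the scaffold of the ubiquitin ligase, went from 514, 679 and 510 at 0 h to 1020, 1210 and 867 at 24 h in wt (0.86 ± 0.12, adjusted p = 1.39e-06). From 6 to 24 h it rose by 0.46 ± 0.12 in wt, 0.59 ± 0.12 in RRR and 0.52 ± 0.12 in empty retrovirus cells (adjusted p = 0.00504, 0.000388 and 0.00235). Its ligase partner Syvn1 (Hrd1), with signals of 331 to 656, rose over the same interval by 0.64 ± 0.12 in RRR and 0.56 ± 0.12 in empty retrovirus cells (adjusted p = 0.000172 and 0.0012). These calls of Sel1l and Syvn1 held with any 1 array left out, though after centring that of Syvn1 in empty retrovirus cells alone passed. In wt the rise of Syvn1 (0.40 ± 0.12, adjusted p = 0.0137) was lost without wt 6 h replicate 3 (0.36, adjusted p = 0.067) or 24 h replicate 1 (0.34, adjusted p = 0.0777) or 3 (0.37, adjusted p = 0.0571). Neither gene was called in any comparison between lines at 1 time.

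Herpud1, an ER membrane protein that supports degradation and also responds to the Atf4 branch, read 227, 216 and 180 at 6 h, 243, 215 and 201 at 12 h, and 576, 376 and 428 at 24 h in empty retrovirus cells and rose there from 6 to 24 h without overlap (1.15 ± 0.27, adjusted p = 0.00238). In wt it was 426, 322 and 436 at 0 h, 143, 226 and 222 at 6 h and 224, 336 and 252 at 24 h. It fell to 6 h (-0.93 ± 0.27, adjusted p = 0.013), a call lost without wt 0 h replicate 3 (-0.86, adjusted p = 0.0562) or 6 h replicate 1 (-0.75, adjusted p = 0.0942). Edem1, a mannosidase-like protein that marks glycoproteins for degradation, read 287, 317 and 282 at 0 h and 517, 479 and 556 at 12 h in wt (0.70 ± 0.12, adjusted p = 6.61e-05). At 6 h it was 326, 305 and 293 in RRR and 467, 417 and 403 in empty retrovirus cells (-0.42 ± 0.12, adjusted p = 0.017). That call was lost without RRR 6 h replicate 3 (-0.39, adjusted p = 0.0705) or empty retrovirus 6 h replicate 1 (-0.36, adjusted p = 0.102), and the second Edem1 probe set was called in the opposite direction. Derl2, a relative of Derl1, had its lowest group means in empty retrovirus cells, with 288, 278 and 407 at 24 h against 455, 441 and 439 in wt (0.52 ± 0.17, adjusted p = 0.0178). The 1 other Derl2 probe set had the opposite sign, and the mean of both gave -0.004. The call at 24 h was lost without wt 24 h replicate 3 (0.51, adjusted p = 0.0546) or empty retrovirus 24 h replicate 1 (0.43, adjusted p = 0.0982) or 2 (0.44, adjusted p = 0.0924). Derl3, another derlin, with signals of 9.52 to 146, read 92.6, 96.7 and 91.1 in RRR and 9.52, 50.7 and 16.5 in wt at 6 h (1.55 ± 0.43, adjusted p = 0.0396). The call was lost without RRR 6 h replicate 1 (1.58, adjusted p = 0.0805), 2 (1.53, adjusted p = 0.0788) or 3 (1.55, adjusted p = 0.102) or wt 6 h replicate 1 (1.28, adjusted p = 0.198) or 3 (1.46, adjusted p = 0.126).

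Among the sensors, Atf6 was higher and Eif2ak3 at 24 h lower in wt than in empty retrovirus cells. Atf6 is cut under stress to release a transcription factor. Its signals in wt were 288, 507 and 368 at 0 h, 369, 349 and 481 at 6 h, 390, 478 and 563 at 12 h, and 743, 826 and 576 at 24 h. In empty retrovirus cells the signals were 210, 241 and 193 at 6 h, 259, 330 and 294 at 12 h, and 375, 277 and 312 at 24 h. The RRR arrays read 187, 284 and 261 at 6 h, 270, 289 and 348 at 12 h, and 529, 401 and 551 at 24 h. At each of these times every wt array was above every empty retrovirus array. The difference of wt minus empty retrovirus was 0.89 ± 0.18 (adjusted p = 0.000915) at 6 h, 0.68 ± 0.18 (adjusted p = 0.00933) at 12 h and 1.15 ± 0.18 (adjusted p = 1.39e-05) at 24 h. Both other Atf6 probe sets were higher at each time, called at 6 and 24 h. The call at 12 h was lost without wt 12 h replicate 3 (0.56, adjusted p = 0.0687) or empty retrovirus 12 h replicate 1 (0.59, adjusted p = 0.0533). RRR exceeded empty retrovirus at 24 h (0.66 ± 0.18, adjusted p = 0.0103), a call lost without RRR 24 h replicate 3 (0.56, adjusted p = 0.0645) or empty retrovirus 24 h replicate 2 (0.57, adjusted p = 0.0589). RRR minus wt was -0.61 ± 0.18, -0.63 ± 0.18 and -0.49 ± 0.18 at 6, 12 and 24 h and did not pass (adjusted p = 0.0615, 0.0838 and 0.137).

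Eif2ak3 (PERK), the kinase of eIF2, was highest by group mean in empty retrovirus cells at each time, with 232, 245 and 177 at 6 h, 328, 302 and 222 at 12 h, and 337, 362 and 398 at 24 h. Cells with wt gave 158, 103 and 108 at 0 h, 150, 138 and 148 at 6 h, 175, 243 and 161 at 12 h, and 150, 120 and 172 at 24 h. In RRR the signals were 122, 102 and 156 at 6 h, 220, 154 and 215 at 12 h, and 222, 209 and 138 at 24 h. At 24 h the empty retrovirus arrays lay above all arrays of both fusions, with differences of -1.20 ± 0.20 (adjusted p = 2.78e-05) for wt and -0.95 ± 0.20 (adjusted p = 0.000837) for RRR. Both calls held with any 1 array left out. The other 2 probe sets of Eif2ak3 had the opposite sign in both comparisons, and 0 of them was called. Ern1 (IRE1), with signals of 108 to 284, rose in wt from 108, 110 and 158 at 0 h to 234, 254 and 223 at 24 h (0.73 ± 0.18, adjusted p = 0.00256). Xbp1, the factor that Ern1 splices, read 2170, 1250 and 1870 at 0 h, 1380, 965 and 1010 at 6 h, 1230, 1010 and 1130 at 12 h, and 1160, 1180 and 1150 at 24 h in wt. RRR cells gave 1520, 1640 and 1450 at 6 h, 1100, 1260 and 1100 at 12 h, and 1510, 1630 and 983 at 24 h. Those of empty retrovirus cells were 885, 851 and 808 at 6 h, 1080, 1190 and 1090 at 12 h, and 1260, 1310 and 1570 at 24 h. At 6 h the RRR arrays lay above all of the other lines. The difference passed against empty retrovirus (0.70 ± 0.16, adjusted p = 0.00253) and not against wt (0.45 ± 0.16, adjusted p = 0.117). Xbp1 rose in empty retrovirus cells from 6 to 24 h (0.77 ± 0.16, adjusted p = 0.000807). Between the fusions 0 of the 4 genes passed at any time, where limma gave an unadjusted p under 0.05 for 2, 1 and 2 of them at 6, 12 and 24 h.

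In the Atf4 branch Ddit3, Trib3 and Chac1 rose in empty retrovirus cells from 6 to 24 h, and at 24 h all 3 were lower in both fusions than in those cells. Ddit3 (CHOP), the stress-induced factor tied to growth arrest and death, read 439, 407 and 446 at 6 h, 308, 587 and 484 at 12 h, and 1230, 1310 and 1220 at 24 h in empty retrovirus cells. Cells with wt gave 259, 419 and 349 at 0 h, 139, 150 and 188 at 6 h, 258, 229 and 219 at 12 h, and 223, 285 and 271 at 24 h. The RRR arrays read 199, 227 and 128 at 6 h, 215, 269 and 234 at 12 h, and 481, 363 and 517 at 24 h. Every empty retrovirus array was above every array of either fusion at the same time. The difference of wt minus empty retrovirus was -1.29 ± 0.20 (adjusted p = 1.85e-05) at 6 h, -0.84 ± 0.20 (adjusted p = 0.00247) at 12 h and -2.33 ± 0.20 (adjusted p = 1.96e-10) at 24 h, and at the same times RRR minus empty retrovirus was -1.08 ± 0.20 (adjusted p = 0.000229), -0.85 ± 0.20 (adjusted p = 0.00359) and -1.55 ± 0.20 (adjusted p = 7.89e-07). These 6 calls share the empty retrovirus arrays and held with any 1 array left out. Between 6 and 24 h Ddit3 rose in empty retrovirus cells (1.64 ± 0.20, adjusted p = 3.95e-07) and in RRR (1.17 ± 0.20, adjusted p = 3.08e-05). Its rise in wt was called too, and was lost with at least 1 array left out. At 24 h RRR exceeded wt without overlap (0.78 ± 0.20, adjusted p = 0.0145), a call lost without RRR 24 h replicate 1 (0.74, adjusted p = 0.0642) or 3 (0.67, adjusted p = 0.086) or wt 24 h replicate 1 (0.67, adjusted p = 0.09).

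Trib3, a pseudokinase that Ddit3 and Atf4 induce, read 77.2, 35.9 and 74.2 at 6 h, 113, 47.2 and 63.1 at 12 h, and 628, 334 and 473 at 24 h in empty retrovirus cells. Cells with wt gave 172, 130 and 181 at 0 h, 26.5, 57.5 and 54.8 at 6 h, 129, 102 and 76.2 at 12 h, and 132, 171 and 192 at 24 h. In RRR the signals were 55.5, 53.5 and 68.6 at 6 h, 31, 75.5 and 45.5 at 12 h, and 190, 118 and 118 at 24 h. The 3 empty retrovirus arrays at 24 h stood above all others. From 6 to 24 h Trib3 rose there (2.75 ± 0.29, adjusted p = 4.25e-08) and in wt (1.45 ± 0.29, adjusted p = 0.000274), where it had fallen from 0 to 6 h (-1.53 ± 0.29, adjusted p = 0.000262). Its rise from 6 to 24 h in RRR was called too, and was lost with at least 1 array left out. At 24 h wt minus empty retrovirus was -1.43 ± 0.29 (adjusted p = 0.000316) and RRR minus empty retrovirus -1.74 ± 0.29 (adjusted p = 4.7e-05). Chac1, a glutathione-degrading enzyme under Atf4, read 124, 115 and 90.6 at 6 h, 134, 86.9 and 82 at 12 h, and 506, 430 and 495 at 24 h in empty retrovirus cells. Cells with wt gave 370, 426 and 391 at 0 h, 108, 151 and 99.1 at 6 h, 96.5, 173 and 156 at 12 h, and 185, 194 and 212 at 24 h. RRR cells gave 132, 106 and 76.9 at 6 h, 104, 112 and 127 at 12 h, and 150, 127 and 209 at 24 h. It was high at 0 h in wt and at 24 h in empty retrovirus cells, and all arrays of the other groups lay below. Chac1 fell from 0 to 6 h in wt (-1.54 ± 0.20, adjusted p = 1.8e-06) and rose from 6 to 24 h in empty retrovirus cells (2.06 ± 0.20, adjusted p = 1.25e-08). A rise of Chac1 from 6 to 24 h in wt was also called, and was lost with at least 1 array left out. Relative to empty retrovirus it was -1.20 ± 0.20 (adjusted p = 2.98e-05) in wt and -1.55 ± 0.20 (adjusted p = 1.15e-06) in RRR at 24 h.

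Atf4 itself, whose activity is set mainly by translation, read 2990, 3570 and 3410 at 0 h, 2490, 2860 and 2390 at 6 h, 2490, 2400 and 2930 at 12 h, and 2990, 2680 and 2700 at 24 h in wt. The RRR arrays read 2020, 1670 and 2820 at 6 h, 2220, 2270 and 2120 at 12 h, and 2850, 3230 and 4270 at 24 h. The empty retrovirus arrays read 1320, 1450 and 1390 at 6 h, 1100, 1150 and 1680 at 12 h, and 2600, 2620 and 3280 at 24 h. The empty retrovirus group means at 6 and 12 h were the lowest of the series, and at 24 h the arrays of wt and empty retrovirus overlapped. Expression in wt exceeded empty retrovirus at 6 h (0.74 ± 0.15, adjusted p = 0.00106) and 12 h (0.88 ± 0.15, adjusted p = 0.000104) and not at 24 h (-0.16 ± 0.15, adjusted p = 0.533). RRR exceeded it at 12 h (0.67 ± 0.15, adjusted p = 0.00373). Atf4 rose from 6 to 24 h in empty retrovirus cells (1.08 ± 0.15, adjusted p = 6.11e-06) and in RRR (0.89 ± 0.15, adjusted p = 5.63e-05) but did not pass in wt (0.18 ± 0.15, adjusted p = 0.474). Of its 2 other probe sets, 0 had the same sign in RRR, and 1 was called with the same sign in empty retrovirus cells. At 6 and 12 h Atf4 was higher and Ddit3 lower in wt than in empty retrovirus cells.

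The amino acid synthesis genes Asns and Psat1 fell from 6 to 24 h in empty retrovirus cells, where Ddit3, Trib3 and Chac1 rose. Asns (asparagine synthetase) read 2880, 2540 and 2410 at 0 h, 1440, 1310 and 1170 at 6 h, 1150, 1110 and 1140 at 12 h, and 1140, 1320 and 1280 at 24 h in wt. In RRR the signals were 1760, 1220 and 2060 at 6 h, 780, 788 and 784 at 12 h, and 1360, 935 and 937 at 24 h. In empty retrovirus cells the signals were 1480, 1500 and 1850 at 6 h, 992, 756 and 936 at 12 h, and 1330, 887 and 941 at 24 h. The arrays at 0 h were above all others. Asns fell in wt from 0 to 6 h (-0.89 ± 0.18, adjusted p = 0.000733) and stayed below 0 h at 12 h (-1.05 ± 0.18, adjusted p = 7.79e-05) and 24 h (-0.86 ± 0.18, adjusted p = 0.000448). It was not called between lines at any time. Over 6 to 24 h Asns fell in empty retrovirus cells (-0.61 ± 0.18, adjusted p = 0.0207), a call lost without empty retrovirus 6 h replicate 3 (-0.52, adjusted p = 0.107) or 24 h replicate 2 (-0.47, adjusted p = 0.147) or 3 (-0.50, adjusted p = 0.113). Psat1, an enzyme of serine synthesis, fell with time in all 3 lines. It read 2270, 2160 and 2380 at 0 h, 1410, 1290 and 1290 at 6 h, 1300, 1030 and 973 at 12 h, and 713, 607 and 611 at 24 h in wt. RRR cells gave 1960, 1460 and 2060 at 6 h, 1440, 1210 and 1140 at 12 h, and 773, 904 and 778 at 24 h. Those of empty retrovirus cells were 1010, 1020 and 885 at 6 h, 562, 789 and 731 at 12 h, and 576, 296 and 474 at 24 h. In each line the arrays at 24 h lay below those at 6 h. The differences from 6 to 24 h were -0.93 ± 0.17 (adjusted p = 9.44e-05) in wt, -0.94 ± 0.17 (adjusted p = 8.24e-05) in RRR and -1.23 ± 0.17 (adjusted p = 3.91e-06) in empty retrovirus cells. At each time the RRR arrays lay above the empty retrovirus arrays (0.69 ± 0.17, adjusted p = 0.00489 at 6 h, 0.78 ± 0.17, adjusted p = 0.0022 at 12 h and 0.98 ± 0.17, adjusted p = 8.49e-05 at 24 h), and all 3 calls held with any 1 array left out. RRR minus wt was 0.42 ± 0.17, 0.20 ± 0.17 and 0.41 ± 0.17 and did not pass (adjusted p = 0.19, 0.799 and 0.197).

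Ppp1r15a (GADD34), which directs the removal of the eIF2 phosphate, was highest at 0 h in wt (525, 485 and 581) and fell to 242, 244 and 233 at 6 h (-1.05 ± 0.20, adjusted p = 0.000325) and 217, 182 and 182 at 24 h (-1.37 ± 0.20, adjusted p = 2.98e-06). In empty retrovirus cells it read 186, 153 and 196 at 6 h, 153, 186 and 194 at 12 h, and 472, 228 and 262 at 24 h. The rise to 24 h there (0.76 ± 0.20, adjusted p = 0.00766) was lost without 24 h replicate 1 (0.44, adjusted p = 0.126) or 6 h replicate 2 (0.67, adjusted p = 0.0504). As a group, 6 of the 7 genes fell and 0 rose in wt from 0 to 6 h (median -0.99; all genes 8.20% and 9.52%). In empty retrovirus cells 5 rose and 2 fell from 6 to 24 h (median 1.08; all genes 8.09% and 7.66%). At 24 h 4 were lower and 1 higher than in empty retrovirus in each fusion, with medians of -0.59 in wt (all genes 14.0% and 11.4%) and -0.61 in RRR (all genes 10.5% and 8.57%). These medians kept their sign under all 3 scalings. Between the fusions 0 of 7 passed at 6 and 12 h, where limma gave 2 and 3 with an unadjusted p under 0.05, and 1 at 24 h, Ddit3.

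**Figure D4:**
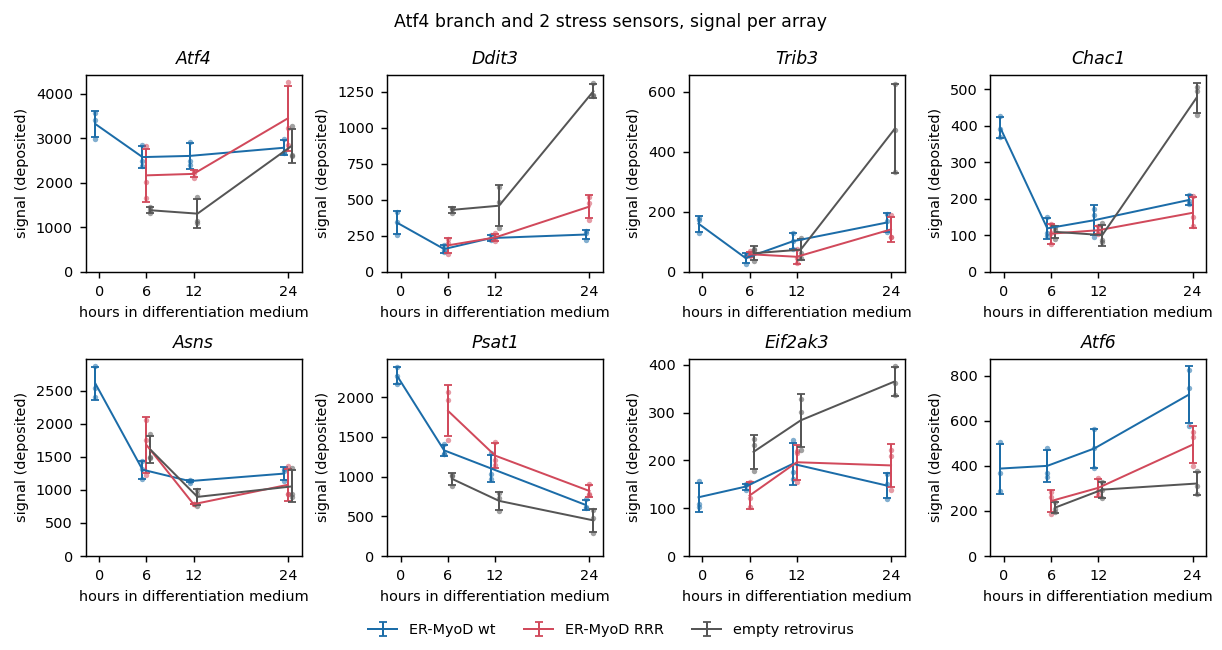
Deposited signal per array (points) with group means and SD (lines and bars) of 6 Atf4 branch genes and the sensors Eif2ak3 and Atf6 against hours in differentiation medium, drawn slightly apart for the 3 lines. Ddit3, Trib3 and Chac1 are highest in empty retrovirus cells at 24 h, Psat1 falls in every line, and Atf6 is highest in wt.

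Other genes of these pathways were then counted from lists of related genes. Of 33 further ER folding and translocation genes, 17 were lower and 3 higher in wt than in empty retrovirus at 24 h (median -0.55; all genes 14.0% and 11.4%), or 11 and 3 after centring. Among the lower were the reductase Dnajc10 (-1.27 ± 0.12, adjusted p = 9.74e-10), the isomerase Pdia5 (-1.63 ± 0.15, adjusted p = 1.45e-09), the oxidase Ero1a (-1.09 ± 0.11, adjusted p = 6.91e-09) and Txndc5 (-1.20 ± 0.19, adjusted p = 9.06e-06). On the higher side was Sil1, the nucleotide exchange factor of Hspa5 (1.46 ± 0.20, adjusted p = 1.41e-06). Their course from 6 to 24 h differed from that of empty retrovirus downward in 15 and upward in 0 (all genes 8.26% and 6.46%). Between the fusions at 24 h, 7 were higher and 0 lower in RRR, among them Dnajc10 (0.64 ± 0.12, adjusted p = 0.000734) and Erp29 (0.70 ± 0.13, adjusted p = 0.000776), against 3.34% and 2.03% of all genes. With the deposited scaling 5 were higher, and after centring 0. At 6 h, where 4 of the 16 chaperones and folding genes among the members were lower in RRR, 1 of these 33 was lower, Ero1a (-0.42 ± 0.11, adjusted p = 0.0313), and 2 were higher, Mogs (0.50 ± 0.11, adjusted p = 0.0105) and Sdf2 (0.36 ± 0.10, adjusted p = 0.0496). After centring 0 of these 3 passed. Before centring 2.03% of all genes were lower and 1.63% higher. Of 14 procollagen processing genes, 5 were lower and 0 higher in wt at 24 h against empty retrovirus (all genes 14.0% and 11.4%). At 6 h 5 were higher and 0 lower (all genes 6.50% and 6.23%), among them Serpinh1, the collagen chaperone (1.03 ± 0.12, adjusted p = 3.47e-07). The 5 lower at 24 h were 4 with the deposited scaling and 2 after centring, and the 5 higher at 6 h were 6 under both.

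Of 37 further Atf4 target genes, 17 rose and 4 fell in empty retrovirus cells from 6 to 24 h (median 0.56; all genes 8.09% and 7.66%). Among those that rose were the proline synthesis enzyme Aldh18a1 (1.67 ± 0.23, adjusted p = 3.53e-06) and the amino acid transporters Slc1a4 (1.61 ± 0.23, adjusted p = 4.54e-06) and Slc7a1 (1.36 ± 0.19, adjusted p = 4.74e-06). Phgdh, which like Psat1 serves serine synthesis, fell (-1.22 ± 0.12, adjusted p = 1.67e-08). At 24 h 13 were lower and 6 higher in wt than in empty retrovirus (median -0.09; all genes 14.0% and 11.4%; 11 and 4 after centring). Among them were the transporter Slc38a2 (-1.04 ± 0.13, adjusted p = 3.73e-07) and the transcription factor Cebpb (-1.22 ± 0.16, adjusted p = 6.76e-07) on the lower side and Gpt2, an alanine aminotransferase (2.44 ± 0.30, adjusted p = 2.91e-07), and Ddit4, an inhibitor of mTORC1 (0.89 ± 0.14, adjusted p = 1.81e-05), on the higher. At 12 h 14 were higher and 1 lower (all genes 7.16% and 8.26%), or 16 and 0 after centring. They were led by the 2 chains of a leucine transporter, Slc3a2 (1.66 ± 0.11, adjusted p = 2.92e-12) and Slc7a5 (2.83 ± 0.25, adjusted p = 1.15e-09). Between the fusions, Ddit4 was lower in RRR at 6 h (-0.92 ± 0.14, adjusted p = 0.000299). At 12 h 4 genes were lower (all genes 0.879%), and after centring 1 gene passed. The 4 were the tRNA synthetases Gars (-0.72 ± 0.11, adjusted p = 0.000184), Wars (-0.51 ± 0.12, adjusted p = 0.0162) and Yars (-0.71 ± 0.19, adjusted p = 0.0448), and Gpt2 (-1.44 ± 0.30, adjusted p = 0.00854). Of 13 further degradation genes 3 were lower and 3 higher in wt than in empty retrovirus at 24 h, and of 13 further transducers 2 and 3 (all genes 14.0% and 11.4%). After centring 1 was lower and 3 were higher in each list. The transducer Wfs1 was lower in RRR than in wt at 12 h (-0.90 ± 0.15, adjusted p = 0.000506). Another list held 13 heat shock genes, which answer to another stress pathway and are cytosolic apart from the mitochondrial Hspd1 and Hspe1. Of these, 10 fell and 0 rose in empty retrovirus cells from 6 to 24 h (median -0.75; all genes 7.66% and 8.09%), led by Hsph1 (-1.79 ± 0.12, adjusted p = 5.87e-12). Over the same interval 17 of the 34 members rose there, a count that was lower after centring. After centring 9 of the heat shock genes fell and 0 rose.

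Probe sets other than the one used were compared too. Of 147 calls in genes with several probe sets, all others had the same sign in 105, another probe set was called in the same direction in 52, and 1 was called in the opposite direction in 2 (Edem1 for RRR minus empty retrovirus at 6 h and Ssr1 for wt at 24 h minus 0 h). Of the 184 calls in the 17 comparisons, 116 held with any 1 array left out. In RRR minus wt these were Dnajc3 and Canx at 6 h and none at 24 h.

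**Figure D5:**
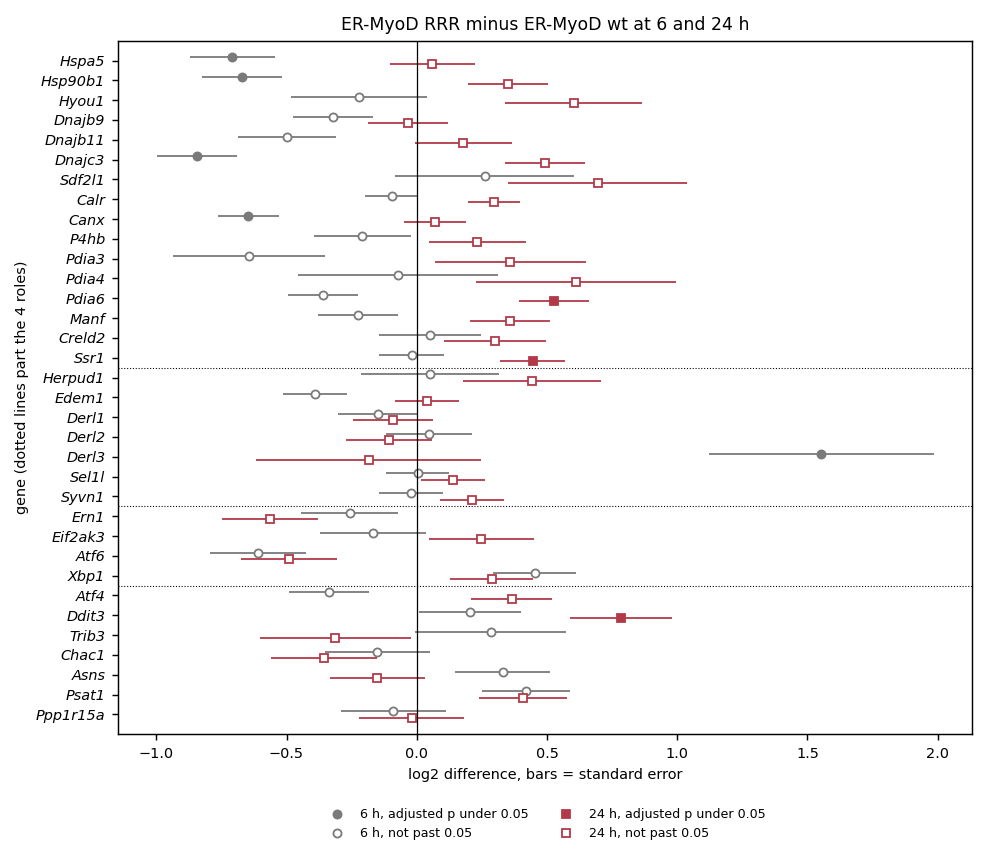
Log2 difference of RRR minus wt for the 34 genes at 6 h (circles) and 24 h (squares), with standard errors, filled where the adjusted p was under 0.05. At 6 h Dnajc3, Hspa5, Hsp90b1 and Canx are filled below 0 and Derl3 above, and at 24 h Ddit3, Pdia6 and Ssr1 are filled above 0.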

How the data were processed

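RNA from mouse fibroblasts was measured on 30 Affymetrix Mouse Genome 430 2.0 arrays, 3 per group. The deposited values are linear intensities (signals), 1 per probe set and array. The software that made them is not given in the sources used here, and the 2% trimmed mean of every array was 149.9 to 150, so the authors' values are scaled to a common level. From these, control probe sets were left out, signals were quantile normalized over 45037 probe sets and taken as log2(signal + 16). The platform annotation gave 1 gene symbol to 34945 of them, several to 932 and none to 9160, and among the first 1 probe set per gene (highest mean over the arrays) gave 18193 genes. limma 3.58.1 in R 4.3.3 (lmFit, eBayes with trend) was fitted with a mean per group over all 30 arrays (20 residual degrees of freedom), and p-values were adjusted over all genes within each of 17 comparisons by Benjamini-Hochberg at 0.05. The fit was tested on simulated data. No filter on low signals was used, and all 34 genes passed the filter tried as an alternative. Precision is limited by the number of arrays. The members and the lists of related genes were chosen with earlier results of these data known. Genes named per comparison were the called members whose groups did not overlap, up to 4 in each direction with the largest difference, and Hspa5, Xbp1, Atf4, Ddit3, Asns and Trib3 were always given. Other named genes were chosen after their values were seen. Alternatives were the deposited scaling, median centring, other offsets, the mean of probe sets, no trend, a replicate block, only the groups compared and leaving out arrays. They were run for the members, and the deposited scaling and centring also for the lists of related genes. Promoter windows came from RefSeq (GRCm38.p6). A list of ER-retained proteins by their C-terminal signal was not analysed here. Figures were drawn with matplotlib 3.10.9 in Python 3.11.15.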

Additional observations from a re-analysis of the deposited data

Results flagged for a closer look

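The difference between wt and empty retrovirus cells changed between 6 and 24 h in 16 of the 34 genes, by a test of the change itself in limma (log2 scale, adjusted p under 0.05), and downward in each. Among the chaperones and folding factors the change was -0.86 for Hspa5, -1.105 for Hsp90b1, -1.035 for Dnajc3, -1.469 for Sdf2l1, -0.751 for Calr, -0.745 for Canx, -0.78 for P4hb, -1.479 for Pdia6, -0.991 for Manf, -1.12 for Creld2 and -0.888 for Ssr1. In the Atf4 branch it was -0.901 for Atf4, -1.042 for Ddit3, -1.297 for Trib3, -1.482 for Chac1 and -1.085 for Ppp1r15a. P4hb, Sdf2l1 and Trib3 lost the call when 1 of several arrays was left out, and the other 13 did not. After median centring 9 of the chaperones and folding factors and 4 of the Atf4 branch passed.

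The difference between RRR and wt changed upward over the same interval in Hsp90b1 (1.021), Dnajc3 (1.337), Canx (0.716) and Pdia6 (0.887), by the same test. Of these 4, Canx was lost when 1 of several arrays was left out, and 0 of the 4 passed after median centring. No explanation of either pattern was tested.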

How the results depend on the processing

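The counts of called members that moved by more than 1.5 times are given by comparison. In RRR minus wt at 6 h the 5 calls were 1 after median centring, 3 with the mean of probe sets and 0 when only the groups compared were fitted, and 2 to 5 with 1 array left out. At 12 h the 0 calls were 2 with the mean of probe sets and 1 with only the groups compared. At 24 h the 3 calls were 1 as deposited, 0 after centring, 5 with a filter on low signals and 0 with only the groups compared, and 0 to 3 with 1 array left out. In wt minus empty retrovirus at 6 h the 8 calls were 5 with the mean of probe sets and 5 without the variance trend, and 4 to 8 with 1 array left out. At 12 h the 8 calls were 5 without the 3 arrays that stood apart, and 3 to 8 with 1 array left out. At 24 h the 18 calls were 11 after centring. In RRR minus empty retrovirus the 7 calls at 6 h were 4 to 10 with 1 array left out, the 3 at 12 h were 5 after centring, and the 11 at 24 h were 7 after centring. From 6 to 24 h in RRR the 14 calls were 8 after centring and 9 with only the groups compared. The 4 calls of the change in RRR minus wt were 2 as deposited, 0 after centring and 1 with only the groups compared. The causes were not tested. The mean of probe sets turned the sign of Edem1 (0.11 in wt minus empty retrovirus at 24 h, 0.194 in RRR minus empty retrovirus at 6 h and 0.026 at 24 h), Derl2 (-0.004 in wt minus empty retrovirus at 24 h) and Ern1 (0.10 in RRR minus empty retrovirus at 24 h), and centring turned Canx in RRR at 24 h minus 6 h (-0.113). Of the 184 calls, 75 were kept under every setting and every left-out array, and 109 were lost under at least 1. Centring lost 60, the mean of probe sets 55, only the groups compared 44, no trend 23, the deposited scaling 20, leaving out the 3 arrays that stood apart 17, offsets of 1 and 64 3 and 2, and the replicate block 0. Deviations of same-numbered arrays correlated with a median of 0.013 (-0.108 to 0.177) over 45 pairs of groups, 0 of which had every correlation over 0.1, so the replicate numbers were not taken as pairs. Of 30 arrays, 20 correlated best with their own number, a hint from the data and not from the design. With the replicate block the calls were 6, 0 and 3 in RRR minus wt, 10, 8 and 18 in wt minus empty retrovirus and 8, 3 and 11 in RRR minus empty retrovirus at 6, 12 and 24 h, and 17, 14 and 19 in wt against 0 h. From 6 to 24 h they were 20 in wt, 16 in RRR and 19 in empty retrovirus cells, and for the changes of the wt minus empty retrovirus and RRR minus wt differences 16 and 6. Signals near background, such as those of Derl3, limit what small differences can show.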
